A study of Sus scrofa with 12 samples.

Results

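The genes described here encode the swine leukocyte antigens (SLA), which are the major histocompatibility complex (MHC) molecules of the pig, together with their partners in antigen presentation. They were measured by RNA sequencing in the uterus of newborn gilts, which are young female pigs. The list held 10 genes, taken wherever the deposited table gave one of them as the symbol, or as the description of an entry without an established symbol. This found 7 of the 10 among the 20390 entries of the table. The 7 were the class II chains SLA-DRA, SLA-DQA1 and SLA-DQB1, the class II peptide exchange genes SLA-DMA and SLA-DMB, and the class I genes SLA-8 and SLA-7. SLA-DOA is described beside them but not counted among the 7, because its entry carries the symbol and description of another gene, SLA (Src-like-adaptor), while the NCBI gene table gives its gene ID as SLA-DOA. CD74 and B2M were not analysed here.

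The study compared 3 groups of 4 gilts, with 1 library per gilt. PND2N gilts nursed freely for 48 h and were killed at 50 h of age, on postnatal day 2. PND2R gilts drank a commercial milk replacer in place of sow's milk over the same 48 h and were also killed at 50 h. PND0 gilts, on postnatal day 0, had not nursed and had their uteri taken within 1 h of birth. Both day 2 groups thus differed from PND0 in having been fed as well as in age. All were crossbred pigs with Duroc, Hampshire, Landrace and Yorkshire in their ancestry, and the labels name no litter, batch or other treatment, so littermates cannot be told from unrelated gilts.

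MHC class II molecules are pairs of an alpha and a beta chain that show peptides from ingested material to CD4 T cells, and they are made mainly by dendritic cells, macrophages and B cells. The DM pair helps load those peptides and the DO pair restrains DM. MHC class I molecules are found on most nucleated cells and show peptides from inside the cell to CD8 T cells. SLA-1 and SLA-3 are classical class I genes of the pig, whereas SLA-6, SLA-7 and SLA-8 are nonclassical ones. Piglets receive almost no maternal antibody before birth and take it up from colostrum.

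Values are the authors' normalized signal, a linear scale whose lowest value is 1, and library totals lay between 26534074 and 29544130. Between 17.8% and 22.1% of entries were at 1 in a library and were not detectable at this depth. Whether values are scaled by gene length is not given in the sources used here, so levels are compared between samples and not between genes. In bulk tissue, fewer cells of a type and less RNA per cell cannot be told apart. Changes are log2 changes of value + 1 from a limma fit across 16862 genes over all 12 libraries, given ± SE, with Benjamini-Hochberg adjusted p and a threshold of 0.05. All 11 entries of a uterine identity list, HOXA10, EMX2 and ESR1 among them, exceeded 1 in all 12 libraries. Libraries PND2N 1, PND2R 2 and PND2R 3 had the highest values of the muscle filament gene DES, at 29022 to 40049, against 7460.1 to 23439.7 in the other 9. They were not a sharply separate group. The median log2 level of the smooth muscle markers, relative to the mean of 12 libraries, was 0.89, 0.57 and 0.39 in them. It was 0.26 in PND2N 4. Libraries PND0 1 and PND0 2 had more epithelial keratin KRT8, at 49821 and 51645, against 14444 and 11099.6 in PND0 3 and PND0 4.

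All 7 SLA genes had estimates above 0 in both day 2 groups against birth, but few passed the test. In PND2N against PND0, none of the 7 passed the adjusted threshold, where 3.32% of all genes passed and 1.91% passed upward. All 7 estimates were above 0, against 47.5% of all genes, with a median of 0.96 over the 7 and -0.04 over all genes. An unadjusted p under 0.05 with a higher level was found for 6 of the 7 and for 12.8% of all genes. In PND2R against PND0, SLA-8 was the 1 gene of the 7 that passed, where 15.0% of all genes passed and 7.7% passed upward. All 7 estimates were again above 0, against 47.0% of all genes, with a median of 0.51 over the 7 and -0.06 over all genes, and 2 of the 7 were higher at an unadjusted p under 0.05, against 16.9% of all genes. With both day 2 groups set jointly against PND0, SLA-DMA and SLA-8 passed, 2 of 7 genes, where 18.1% of all genes passed and 9.57% passed upward. In that comparison all 7 were above 0, against 47.2% of all genes, and 5 of the 7 were higher at an unadjusted p under 0.05, against 17.8%. No test was made of these counts against the shares of all genes, and the comparisons share their PND0 libraries.

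**Figure D1:**
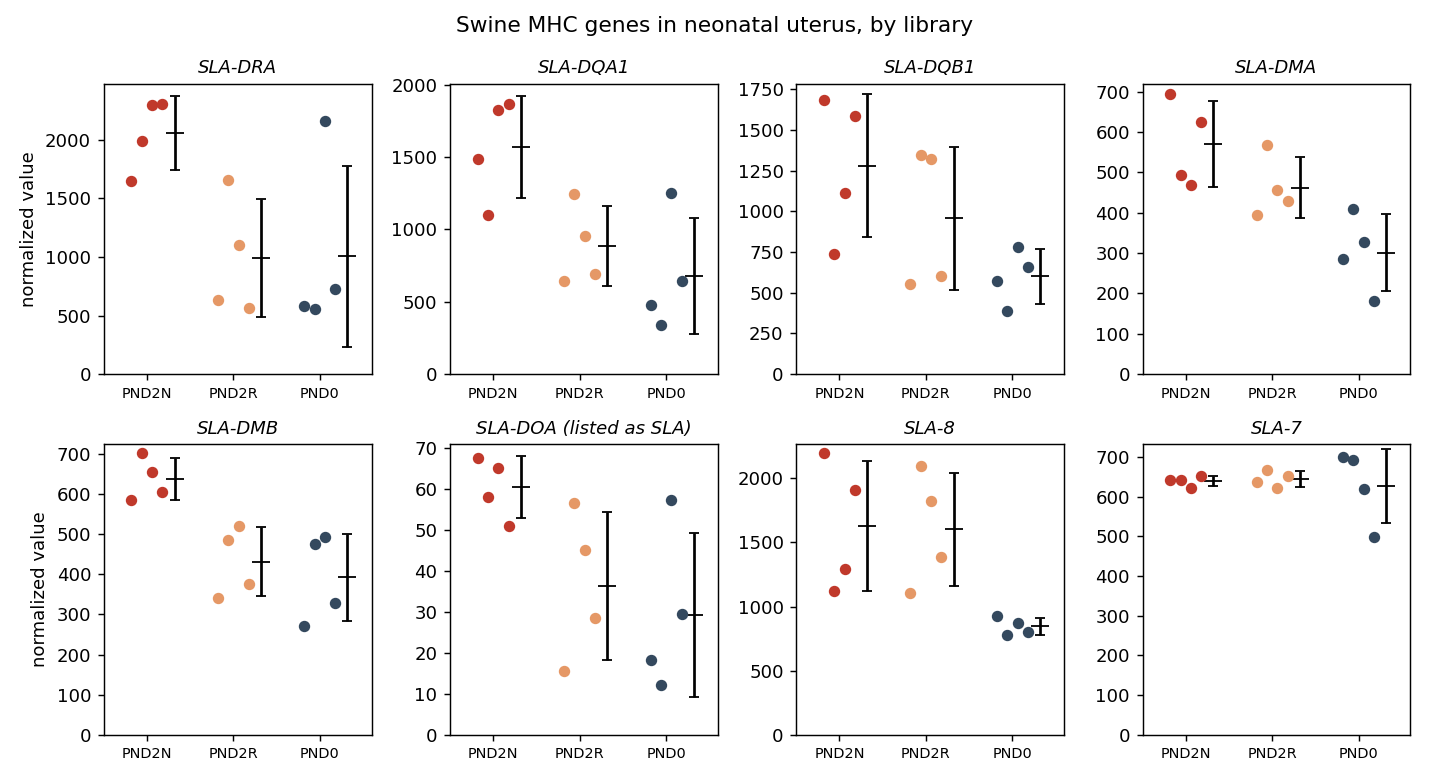
Normalized value (linear axis from 0, 1 panel per gene) of 7 SLA genes and of SLA-DOA in each of 12 uterine libraries; points are libraries and bars are the mean ± SD of 4. SLA-8 was 1107 to 2193 in the 8 day 2 libraries and 781 to 922 at birth, while SLA-DRA had 1 PND0 library at 2158 among 3 at 552 to 729.

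SLA-DRA encodes the DR alpha chain and lies at chr7:29091415-29097010 on the plus strand of Sscrofa10.2, the build of the table's positions. Its normalized values were 1645, 1987, 2301 and 2302 in PND2N, 636, 1655, 1102 and 562 in PND2R, and 578, 552, 2158 and 729 in PND0. PND2N libraries were all high, while PND2R and PND0 each held low libraries and at least 1 as high as the lowest of PND2N. The change in PND2N against PND0 was 1.28 ± 0.44 (adjusted p = 0.113), and in PND2R against PND0 it was 0.09 ± 0.44 (adjusted p = 0.891). The size of the change and the call varied with the PND0 library left out. Without PND0 3, the change in PND2N was 1.73 and passed (adjusted p = 0.0417), and so did the change of both day 2 groups together, at 1.14 (adjusted p = 0.0398). Without PND0 1 or PND0 2, the PND2N change was 1.09 or 1.07 and did not pass in limma (adjusted p = 0.203 and 0.188).

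SLA-DQA1, the DQ alpha chain at chr7:29219852-29225671 on the plus strand, behaved much like SLA-DRA from library to library. Its normalized values were 1489, 1099, 1823 and 1864 in PND2N, 644, 1247, 957 and 692 in PND2R, and 476, 342, 1253 and 640.2 in PND0. Only PND0 3 among the birth libraries reached into the PND2N range. The change in PND2N against PND0 was 1.35 ± 0.36, the highest estimate among the 7 genes, with a 95% interval of 0.56 to 2.14 (adjusted p = 0.0621). The change in PND2R was 0.51 ± 0.36 (adjusted p = 0.322), and both day 2 groups together gave 0.93 ± 0.32 (adjusted p = 0.059). Without PND0 3 the change in PND2N was 1.70 and passed (adjusted p = 0.0298), as did the joint day 2 change of 1.28 (adjusted p = 0.021), and without PND2R 1 the joint change was 1.00 (adjusted p = 0.0493).

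SLA-DQB1, the DQ beta chain at chr7:29235397-29243602 on the minus strand, had normalized values of 1681, 738, 1115 and 1584 in PND2N, 553, 1348, 1323 and 600.3 in PND2R, and 572, 386, 781 and 660.0 in PND0. PND2R divided into a pair of libraries at the PND2N level and a pair within the PND0 range. The high pair, PND2R 2 and PND2R 3, is also the pair with high DES. The change was 1.07 ± 0.37 in PND2N against PND0 (adjusted p = 0.117) and 0.59 ± 0.37 in PND2R against PND0 (adjusted p = 0.251). Without the 3 libraries of high DES the PND2R change of SLA-DQB1 was -0.01 and that of SLA-DRA was -0.49, while their PND2N changes were 0.91 and 1.38.

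SLA-DMA encodes the DM alpha chain and lies at chr7:29573345-29577765 on the minus strand. Its normalized values were 694, 494, 469.8 and 625 in PND2N, 394, 569, 455 and 428 in PND2R, and 286, 409, 328 and 181 in PND0. Every PND2N library lay above every PND0 library, and 7 of the 8 day 2 libraries did. SLA-DMA rose on day 2, by 0.81 ± 0.23 for both day 2 groups against PND0 (adjusted p = 0.0314), a ratio of means of 1.71. The changes of the single groups were 0.96 ± 0.26 in PND2N (adjusted p = 0.0637) and 0.66 ± 0.26 in PND2R (adjusted p = 0.0939). The joint call was lost without PND2N 4, PND2R 2, PND2R 3, PND0 1, PND0 3 or PND0 4 in turn, where the change was 0.59 to 0.87 (adjusted p = 0.0547 to 0.0981), and without the 3 libraries of high DES, where it was 0.68 (adjusted p = 0.109). Without PND0 2, the PND2N change of 1.13 passed (adjusted p = 0.0489).

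SLA-DMB, the DM beta chain at chr7:29559126-29564938 on the minus strand, had normalized values of 586, 702, 654 and 606 in PND2N, 342, 486, 519.9 and 377 in PND2R, and 272, 476, 493 and 329.6 in PND0. The PND2N libraries lay above all 8 others, while PND2R and PND0 overlapped. Its change was 0.74 ± 0.23 in PND2N against PND0 (adjusted p = 0.0941) and 0.16 ± 0.23 in PND2R against PND0 (adjusted p = 0.644). SLA-DMA, SLA-DMB and SLA-8 were the 3 of 7 genes whose PND2N libraries all exceeded those of PND0, a separation seen upward in 8.14% of all genes tested.

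SLA-DOA encodes the DO alpha chain, and its entry lies at chr7:29618715-29622514 on the minus strand. Its normalized values were low, at 67.7, 58.2, 65.2 and 51.0 in PND2N, 15.5, 56.7, 45.1 and 28.6 in PND2R, and 18.3, 12.2, 57.3 and 29.5 in PND0. The libraries that were high for SLA-DRA were high here too, PND2R 2 and PND0 3 included. Its change was 1.24 ± 0.50 in PND2N against PND0 (adjusted p = 0.161) and 0.38 ± 0.50 in PND2R against PND0 (adjusted p = 0.595). The PND2R change ran from 0.06 without PND0 2 to 0.77 without PND0 3, and was 0.12 without PND2R 2, 0.92 under quantile normalization and -0.23 without the 3 libraries of high DES, and none of these passed.

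SLA-8, a nonclassical class I gene at chr7:27620799-27623964 on the plus strand, rose on day 2. Its normalized values were 2193, 1122, 1290.4 and 1908 in PND2N, 1107, 2097, 1819 and 1386 in PND2R, and 922, 781, 875 and 804 in PND0. All 8 day 2 libraries lay above all 4 PND0 libraries, a separation seen upward in 6.67% of all genes tested, and the PND0 libraries were close together. PND2R alone also lay wholly above PND0, as in 12.7% of all genes upward. The joint day 2 change was 0.89 ± 0.21 (adjusted p = 0.019), with ratios of means of 1.93 in PND2N and 1.90 in PND2R against PND0. The change in PND2R alone was 0.88 ± 0.25 and passed (adjusted p = 0.035), and that in PND2N was 0.89 ± 0.25 (adjusted p = 0.0667). The PND2R call was lost without any 1 of PND2R 2, 3 and 4 or of the 4 PND0 libraries, where the change was 0.74 to 0.94 (adjusted p = 0.0509 to 0.109), and with no filter on low values (adjusted p = 0.0539). The joint call was lost without PND0 4, at 0.86 (adjusted p = 0.0589). Without the 3 libraries of high DES the changes were 0.55 in PND2R (adjusted p = 0.211) and 0.64 jointly (adjusted p = 0.0574).

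SLA-7, the neighbouring nonclassical class I gene at chr7:27633819-27637073 on the minus strand, had the narrowest range of the 7 genes. Its normalized values were 642, 642, 621 and 652 in PND2N, 638, 668, 621 and 653 in PND2R, and 699.8, 692, 619.6 and 499 in PND0. The coefficient of variation over the 12 libraries was 7.95%, against 38.1% for SLA-8, and PND0 held both the highest and the lowest library. Its change was 0.04 ± 0.16 in PND2N against PND0, with a 95% interval of -0.30 to 0.38, and 0.05 ± 0.16 in PND2R against PND0, with an interval of -0.29 to 0.39. The ratio of SLA-8 to SLA-7, a ratio of unscaled signals used only between samples, was 2.54 ± 0.765 in PND2N, 2.48 ± 0.663 in PND2R and 1.37 ± 0.200 in PND0 (SD, n = 4 each).

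**Figure D2:**
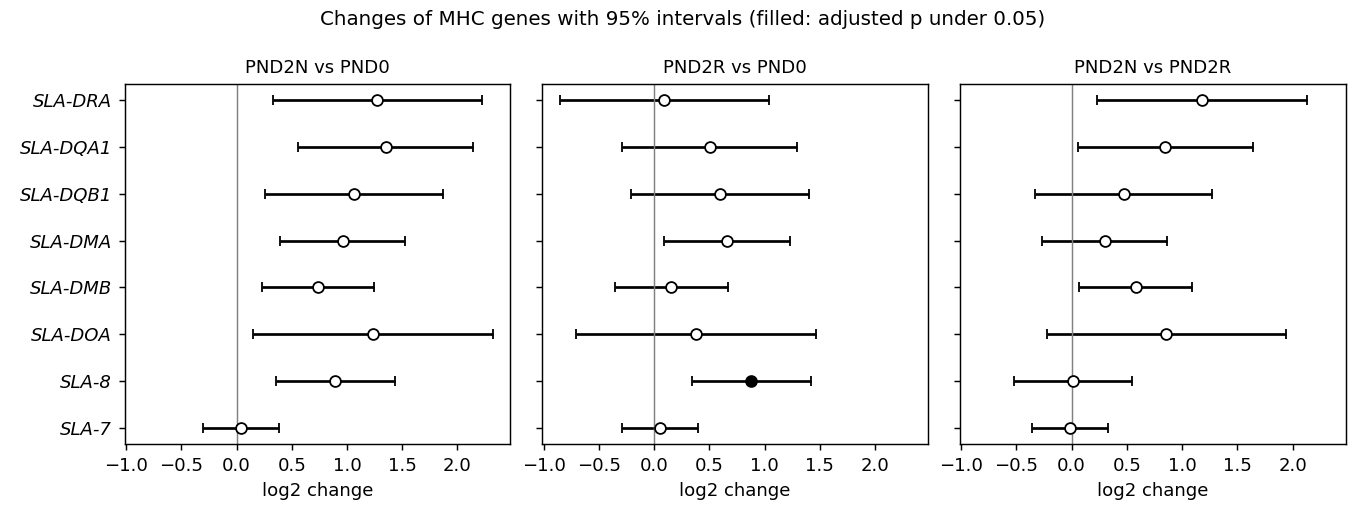
Log2 change (horizontal axis) with 95% interval of 7 SLA genes and SLA-DOA in 3 comparisons; filled points have an adjusted p under 0.05. In PND2N against PND0 the class II estimates ran from 0.74 to 1.35, SLA-8 was the filled point in PND2R against PND0, and SLA-7 lay near 0 in each.

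Nursing and replacer feeding at the same age differed by class II estimates above 0 in PND2N against PND2R that did not pass the test. The changes were 1.18 ± 0.44 for SLA-DRA, 0.85 ± 0.36 for SLA-DQA1, 0.58 ± 0.23 for SLA-DMB, 0.47 ± 0.37 for SLA-DQB1 and 0.30 ± 0.26 for SLA-DMA, with adjusted p = 1.00 for each in limma. None of the 7 passed, where 0.0119% of all genes did and 0.0% passed upward. Estimates were above 0 for 6 of the 7, against 54.5% of all genes, and 3 were higher at an unadjusted p under 0.05, against 1.53%. SLA-DMB was the 1 gene of the 7 whose PND2N libraries all exceeded those of PND2R, which held upward for 1.39% of all genes. The class I genes gave 0.01 ± 0.25 for SLA-8, with a 95% interval of -0.52 to 0.55, and -0.01 ± 0.16 for SLA-7. Without the 3 libraries of high DES, which leaves PND2R 1 and PND2R 4 as the replacer-fed libraries, the SLA-DRA change was 1.87 (adjusted p = 0.686) and that of SLA-DMB was 0.86 (adjusted p = 1.00). Markers of other cells also lay to 1 side in PND2N against PND2R, with none past the threshold in limma. Estimates were above 0 for all 8 stromal fibroblast markers (median change 0.31) and for 9 of 11 endothelial markers (median 0.25), 3 of them at an unadjusted p under 0.05, and for 0 of 10 epithelial markers (median -0.12). Their part in the class II estimates was not tested.

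The class II chains varied together from library to library, also within groups. Over the 12 libraries, Pearson's r of log2 values was 0.93 between SLA-DRA and SLA-DQA1, 0.90 between SLA-DRA and SLA-DOA, and 0.87 between SLA-DQA1 and SLA-DQB1. After group means were taken out, r was 0.90, 0.85 and 0.77 for these pairs. SLA-DMA stood farther from the chains, with r of 0.52 with SLA-DRA over the 12 libraries and 0.20 within groups. SLA-DQB1 also went with SLA-8, at 0.87 both over the 12 libraries and within groups, while SLA-8 and SLA-7 had 0.23. All values of a library share its preparation and scaling, so these are descriptions of 12 libraries.

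Genes of red blood cells varied with the class II chains from library to library, though not in the same order. HBB, the beta chain of hemoglobin, had normalized values of 2063, 2407, 3734 and 2862 in PND2N, 669, 2798, 1515 and 777 in PND2R, and 1353, 1306, 2446 and 982 in PND0. The high libraries in PND2R and PND0 were again PND2R 2 and PND0 3. Pearson's r of HBB with the mean standardised value of the 5 class II genes was 0.82 over the 12 libraries and 0.86 within groups. For ALAS2, the enzyme that starts heme synthesis in red cell precursors, r was 0.65 over the 12 libraries and 0.81 within groups. SLC4A1, the anion exchanger of the red cell membrane, had r of 0.86 over the 12 libraries and 0.68 within groups. It was at most 2.42 in any library, so its r rests on values near the lowest value of 1. Red cell genes were not alone in this. With the class II mean, the macrophage genes AIF1, C1QB and CSF1R had r of 0.68, 0.59 and -0.31 over the 12 libraries. Within groups they had 0.30, 0.19 and -0.23. The leukocyte gene PTPRC had -0.18 and -0.38. HBB was 1.15 ± 0.42 higher in PND2N than in PND2R on the log2 scale, and ALAS2 was 1.55 ± 0.62 higher, neither past the threshold (adjusted p = 1.00 each). The summed level of the 4 red cell markers measured was 2164 to 4013 in PND2N, 689 to 2934 in PND2R and 1062 to 2656 in PND0. Their part in the class II values was not tested.

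**Figure D3:**
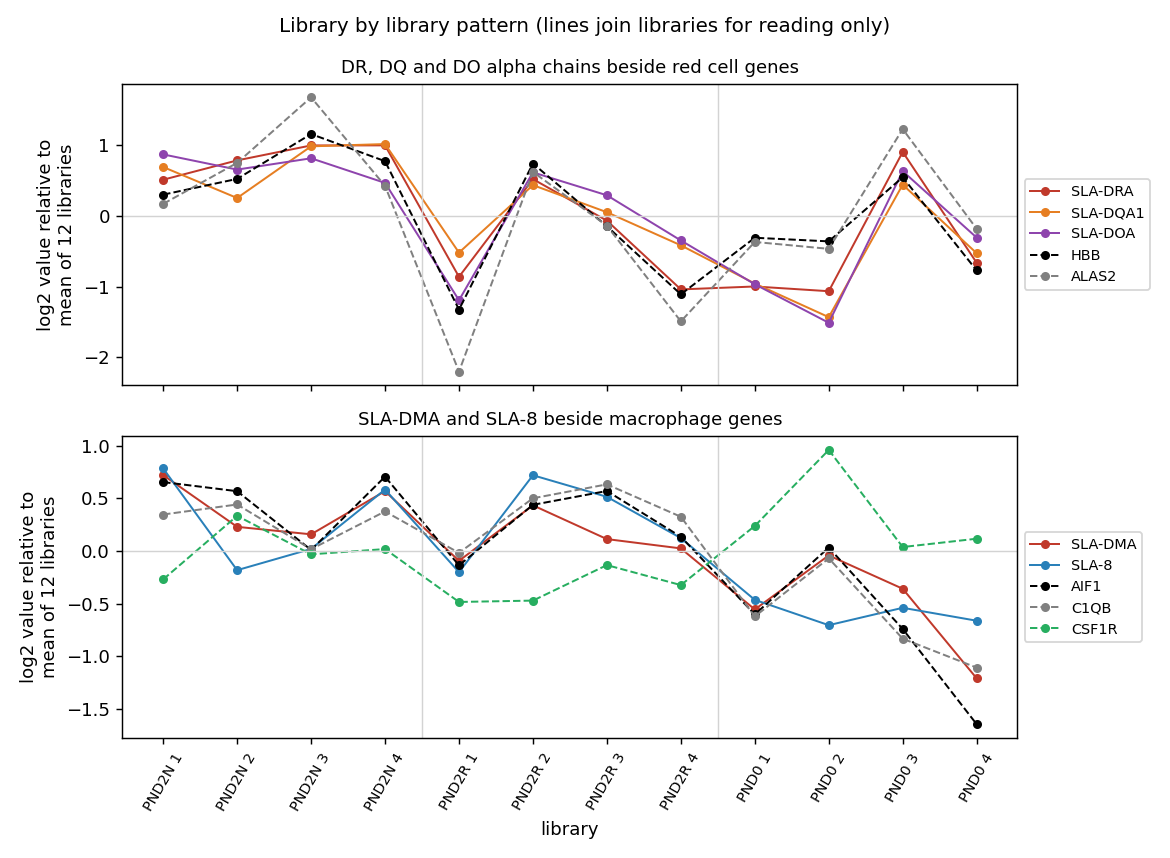
Log2 value relative to the mean of 12 libraries (vertical axis) for each library (horizontal axis), with class II alpha chains and the red cell genes HBB and ALAS2 above, and SLA-DMA, SLA-8 and 3 macrophage genes below. PND2R 2 and PND0 3 were high for SLA-DRA (1655 and 2158) and for HBB (2798 and 2446), and CSF1R was highest in PND0 2 (1356).

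Macrophage genes differed among themselves beside SLA-DMA and SLA-8. C1QB and C1QC, subunits of the complement protein that tissue macrophages secrete, rose in PND2N against PND0 by 0.95 ± 0.22 (adjusted p = 0.0414) and 1.13 ± 0.26 (adjusted p = 0.0407). They rose in PND2R by 1.02 ± 0.22 (adjusted p = 0.0164) and 1.21 ± 0.26 (adjusted p = 0.016). AIF1, a calcium-binding protein of macrophages encoded within the MHC region, rose by 1.11 ± 0.29 for both day 2 groups (adjusted p = 0.0241). CSF1R, the receptor that macrophages need to survive, had changes of -0.33 ± 0.22 in PND2N (adjusted p = 0.371) and -0.69 ± 0.22 in PND2R (adjusted p = 0.055). Of 11 macrophage markers tested, 5 rose and none fell in the joint day 2 comparison, where 18.1% of all genes passed and 9.57% passed upward. Estimates were above 0 for 7 of the 11 jointly and for 7 in PND2R, against 47.2% and 47.0% of all genes. In PND2R the lowest was -1.10, and 2 were lower at an unadjusted p under 0.05 in limma, with none past the adjusted threshold. The summed level of the list was 9047 to 11052 in PND2N, 7734 to 11735 in PND2R and 4413 to 8433 in PND0. FCER1G was at 1 in every library. The part of these cells in the changes of SLA-DMA and SLA-8 was not tested.

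Some markers of other leukocytes passed the test. Of all genes, 3.32% passed in PND2N, 15.0% in PND2R and 18.1% jointly against PND0, with 1.91%, 7.7% and 9.57% upward. MS4A1, which encodes the B cell antigen CD20, was at most 8.85 in any library, and none of 8 B cell markers passed in limma in PND2N or PND2R against PND0 or jointly, with 0 at an unadjusted p under 0.05. FLT3, a receptor of dendritic cell precursors, reached at most 3.80 and was not tested, and BATF3 was at 1 in every library. Of 6 dendritic cell markers tested, CLEC10A fell, by 1.51 ± 0.43 in PND2R (adjusted p = 0.0363), at levels of 1.48 in PND2R and 6.84 in PND0. Jointly against PND0, 1 of the 6 had an estimate above 0. In PND2N against PND2R, 5 of the 6 were above 0, with a median change of 0.74 over the 6, and 1 of them, XCR1, was higher at an unadjusted p under 0.05, but none passed in limma. In that comparison 4 of 8 B cell, 6 of 10 T cell and 7 of 11 macrophage markers had estimates above 0, with medians of 0.05, 0.13 and 0.05, and 54.5% of all genes did. The T cell receptor subunit CD3E was at 50.1 to 82.1 in PND2N, 24.2 to 63.7 in PND2R and 32.1 to 58.8 in PND0. Among 10 T cell markers, CD247 rose by 0.78 (adjusted p = 0.0317) and IL7R fell by 2.58 (adjusted p = 0.0414) in PND2R. None of 8 natural killer cell markers tested passed in limma, with 1 lower at an unadjusted p under 0.05 in PND2R. LAPTM5, a lysosomal protein of blood cells, rose in PND2N by 0.75 ± 0.19 (adjusted p = 0.0495) and in PND2R by 0.62 ± 0.19 (adjusted p = 0.0446), while PTPRC (CD45) had -0.01 ± 0.53 and -0.54 ± 0.53. The summed levels were 6677 to 9079, 6654 to 7934 and 3981 to 8329.9 for 8 leukocyte markers in PND2N, PND2R and PND0. In the same order they were 128 to 249, 108 to 212 and 202 to 404 for 8 dendritic cell markers, 835 to 2001, 898 to 1753 and 937 to 1752 for 8 B cell markers, and 1264 to 2285, 1712 to 2260.3 and 1150.5 to 1397 for 10 T cell markers.

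Around the 7 genes, none of 11 other MHC and MHC-like entries passed in limma in the 4 comparisons, and 1 of them, SLA-1 in PND2R against PND0, had an unadjusted p under 0.05. The DR beta chain SLA-DRB1 had an estimate near that of its partner SLA-DRA in PND2N against PND0, at 1.40 ± 0.83 (adjusted p = 0.307), but spread far more. The classical class I genes SLA-3 and SLA-1 had 0.12 ± 0.52 and 0.65 ± 0.55 in PND2N, and -0.09 ± 0.52 and 1.20 ± 0.55 in PND2R (adjusted p from 0.133 to 0.914). The nonclassical SLA-6 had 0.12 ± 0.36 in each. SLA genes are polymorphic and the class I copies are near-identical, and how reads shared between copies were assigned is not given in the sources used here, so levels of single class I entries are uncertain. An entry outside the lists, LOC100153163, described in the table as an MHC class I polypeptide-related sequence B-like gene and chosen after its values were seen, lies next to SLA-8 at chr7:27595368-27609112. It rose in PND2N by 0.83 ± 0.19 (adjusted p = 0.0363) and in PND2R by 0.79 ± 0.19 (adjusted p = 0.0218), with values of 795 to 1242 in the 8 day 2 libraries and 482 to 646 in PND0.

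Some entries of the block spread widely between gilts of 1 group. SLA-DRB1 had normalized values of 154, 113, 455 and 496 in PND2N, 40.0, 467, 123 and 76.9 in PND2R, and 286, 33.9, 141 and 56.8 in PND0. A class I-like entry, LOC100513601, chosen after its values were seen, had 1166, 916, 4018 and 5127 in PND2N, 862, 5175, 823 and 837 in PND2R, and 4684, 1267, 654 and 712 in PND0. Both had their 4 highest values in PND2N 3, PND2N 4, PND2R 2 and PND0 1, as did 1 of the 2 TAP2 entries, at 140.5 to 171 there and 38.6 to 102 in the other 8 libraries. SLA-DOB2, an entry outside the lists that was also chosen after its values were seen, ran the other way in 3 of these libraries. It was at 1.00, 1.71 and 3.17 in PND2N 3, PND2N 4 and PND0 1, against 18.05 to 73.1 in the other 9. The ratio of SLA-3 to SLA-1 was 1.05 in PND2R 2 and 9.49 to 30.4 in the other 11 libraries. SLA-DRA, SLA-DQA1, SLA-DMA and SLA-7 each had other libraries among their 4 highest.

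**Figure D4:**
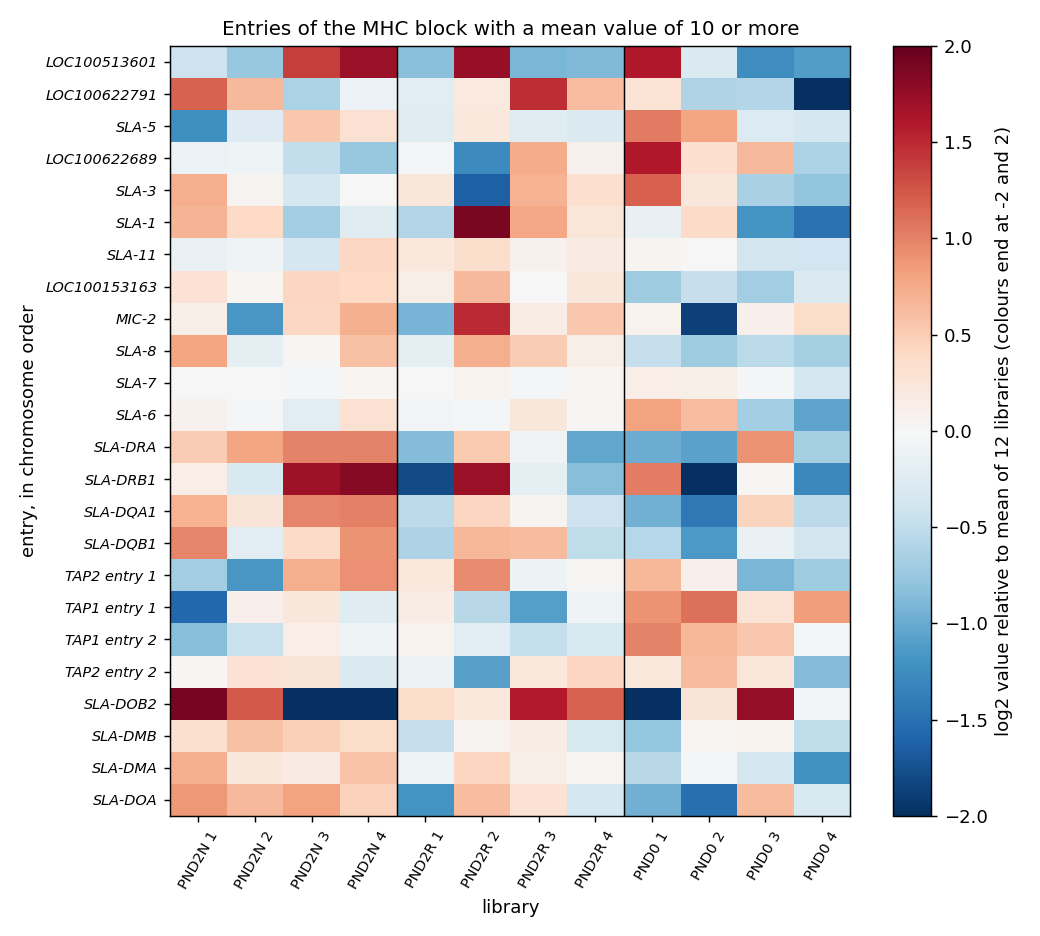
Log2 value relative to the mean of 12 libraries (colour, ends at -2 and 2) for entries of the MHC block with a mean value of 10 or more (rows, in chromosome order) in each library (columns). SLA-7 was nearly even across libraries (499 to 699.8), and LOC100513601 and SLA-DRB1 were highest in PND2N 3, PND2N 4, PND2R 2 and PND0 1.

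In the class II processing pathway, IFI30 and CTSS rose on day 2, by 1.03 ± 0.17 (adjusted p = 0.00496) and 1.02 ± 0.26 (adjusted p = 0.0219) for both day 2 groups against PND0. In that comparison 2 of 9 processing genes rose and 1 fell, where 18.1% of all genes passed and 9.57% passed upward. IFI30, the lysosomal thiol reductase that opens disulfide bonds of antigens, had normalized values of 2487, 1622, 2015 and 2086 in PND2N, 1909, 2503, 2693 and 2178 in PND2R, and 1215, 1297, 1010.1 and 795 in PND0. All day 2 libraries lay above all PND0 libraries, a separation seen upward in 6.67% of all genes tested. IFI30 rose by 0.94 ± 0.19 in PND2N (adjusted p = 0.0296) and 1.12 ± 0.19 in PND2R (adjusted p = 0.00839). CTSS, the cathepsin that trims the invariant chain in antigen-presenting cells, had 41.1 to 54.6 in PND2N, 38.6 to 50.0 in PND2R and 15.2 to 28.2 in PND0. It rose in PND2R by 0.97 ± 0.30 (adjusted p = 0.0468) and had 1.08 ± 0.30 in PND2N (adjusted p = 0.0667). SPPL2A, the protease that in mice clears the remnant of the invariant chain, fell in PND2R by 0.74 ± 0.20 (adjusted p = 0.0301) and had -0.38 ± 0.20 in PND2N (adjusted p = 0.259). Of 9 processing genes tested, 1 rose and none fell in PND2N, where 3.32% of all genes passed, and 2 rose and 1 fell in PND2R, where 15.0% passed and 7.7% passed upward. Estimates were above 0 for 6 of the 9 in each, against 47.5% and 47.0% of all genes. The lowest estimates, -1.23 in PND2N and -1.88 in PND2R, did not pass.

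Among 6 class II transcription genes tested, 1 passed in PND2R, where 15.0% of all genes passed and 7.7% passed upward. It was NFYB, a subunit of the factor that binds the Y box of class II promoters, which rose by 0.73 ± 0.19 (adjusted p = 0.029). None of the 6 passed in PND2N, where 3.32% of all genes did. There 1 was higher at an unadjusted p under 0.05, against 12.8% of all genes. RFX5, which binds the X box, had 0.36 ± 0.19 in each of PND2N and PND2R. NFYA, another subunit of the Y box factor, had changes of -1.34 ± 0.85 in PND2N (adjusted p = 0.336) and -1.92 ± 0.85 in PND2R (adjusted p = 0.124), and the PND2R change had an unadjusted p under 0.05. Its levels spread widely, at 14.5 to 211 in PND2N, 13.6 to 148 in PND2R and 162 to 222 in PND0. The class II transactivator CIITA and its class I counterpart NLRC5 were not analysed here.

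Class I loading genes had estimates on both sides of 0. The transporter subunit TAP1, which carries peptides into the endoplasmic reticulum, has 2 entries in the table, and both had negative changes that did not pass. Its first entry had means of 16.9 ± 7.79 in PND2N, 15.8 ± 5.91 in PND2R and 35.7 ± 8.28 in PND0 (SD, n = 4 each). The changes of this entry were -1.15 ± 0.45 in PND2N (adjusted p = 0.153) and -1.18 ± 0.45 in PND2R (adjusted p = 0.0873), and those of the second were -0.85 ± 0.33 and -0.78 ± 0.33. The chaperone CALR rose in PND2R by 0.64 ± 0.18 (adjusted p = 0.0372), and TAPBPL, a peptide editor, rose in the joint day 2 comparison by 0.53 ± 0.16 (adjusted p = 0.0404). Of 11 loading entries, none passed in PND2N, with 2 higher and 2 lower at an unadjusted p under 0.05, where 12.8% of all genes were higher, and 1 passed in PND2R, where 15.0% of all genes did.

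Of 8 proteasome entries, which include the interferon-induced subunits PSMB8 and PSMB9, none passed in PND2N, with 5 higher at an unadjusted p under 0.05, against 12.8% of all genes, and 3 rose in PND2R, where 7.7% of all genes passed upward. The 3 were the activator subunits PSME1, by 0.84 ± 0.22 (adjusted p = 0.03), and PSME2, by 1.13 ± 0.31 (adjusted p = 0.0321), and the constitutive subunit PSMB6, by 1.01 ± 0.30 (adjusted p = 0.0414). PSMB9 had -0.71 and -0.72 in PND2N and PND2R and did not pass. The cytokine IFNG, an inducer of MHC genes, and IDO1, an enzyme it induces, were at 1 in all 12 libraries. Of 11 interferon gamma pathway genes tested, none passed in PND2N, 1 rose in PND2R and 2 rose jointly. Of all genes, 7.7% passed upward in PND2R and 9.57% jointly. GBP2, an interferon-induced GTPase, rose in PND2R by 1.01 ± 0.26 (adjusted p = 0.0261). CXCL11, a chemokine, rose in the joint comparison by 1.63 ± 0.47 (adjusted p = 0.0349) from low values of at most 13.0. Of 7 costimulation genes, 1 rose and none fell in PND2R, where 15.0% of all genes passed and 7.7% passed upward. It was CD274 (PD-L1), which rose by 1.25 ± 0.32 (adjusted p = 0.0257). Its means were 44.2 ± 11.4 in PND2N, 57.0 ± 6.77 in PND2R and 23.9 ± 6.54 in PND0 (SD, n = 4 each).

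**Figure D5:**
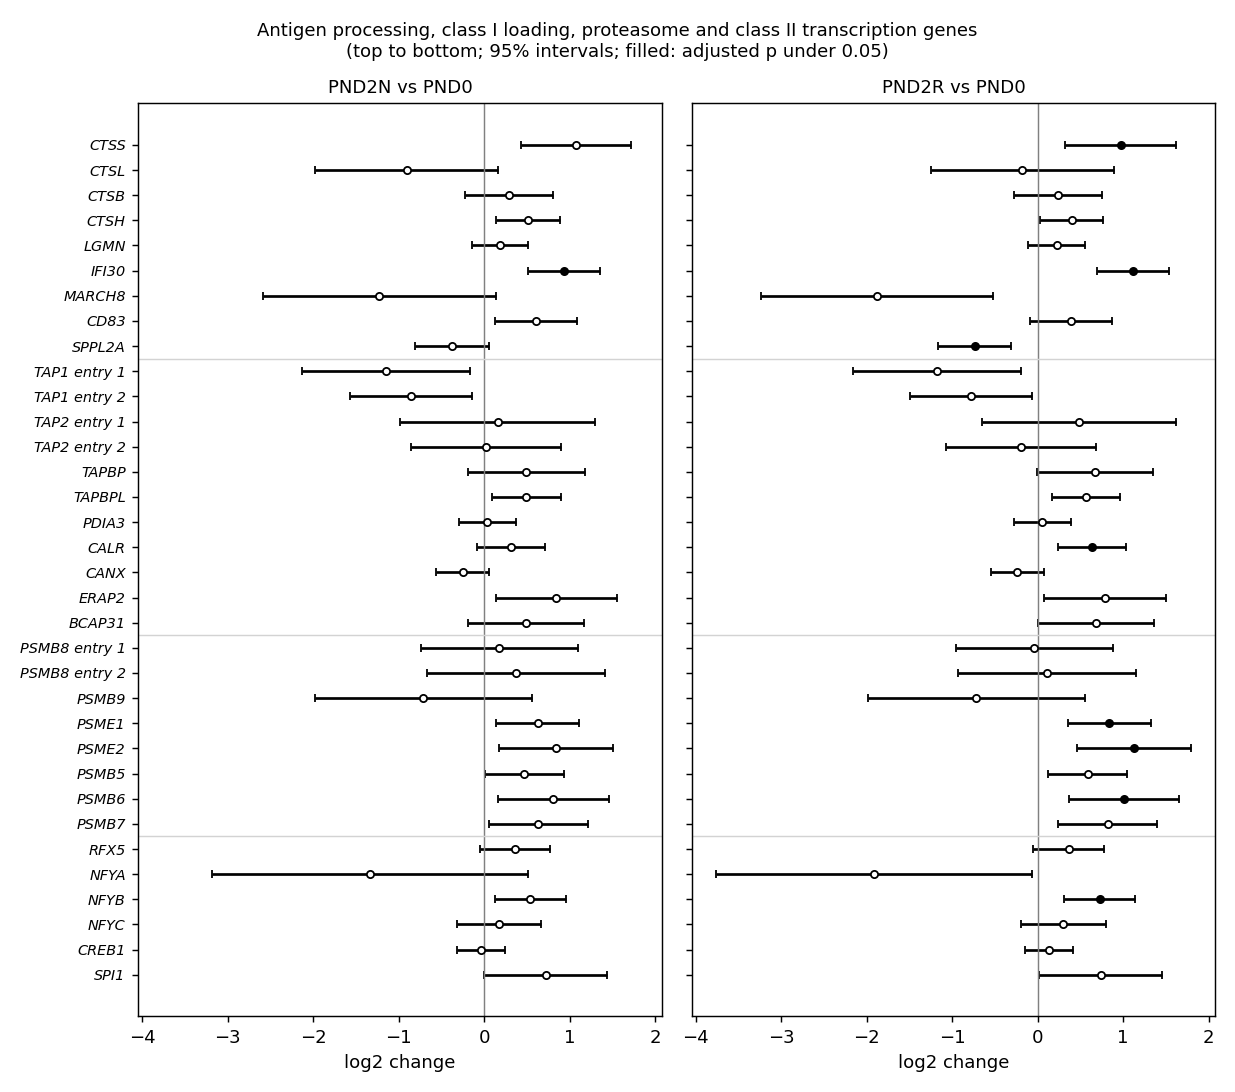
Log2 change (horizontal axis) with 95% interval in PND2N and in PND2R against PND0 for, from top to bottom, class II processing, class I loading, proteasome and class II transcription genes; filled points have an adjusted p under 0.05. IFI30 was the filled point in PND2N (0.94), and in PND2R the filled points included CTSS (0.97), PSME2 (1.13) and SPPL2A (-0.74).

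The genes most like the class II mean over the 12 libraries, by Pearson's r of log2 values among tested genes with a symbol, were SERPINB10 (r = 0.93), ASB9 (0.91), SMYD2 (0.90), KIAA0040 (0.90), FAM81A (0.90), CD59 (0.89), P311 (0.89) and CHST10 (0.88). After group means were taken out, their r ran from 0.67 for CD59 to 0.94 for SMYD2. SERPINB10 was low, at 1 in PND2R 4, PND0 1, PND0 2 and PND0 4 and at most 18.4, in PND2N 4. SMYD2, a lysine methyltransferase, had normalized values of 807, 760.5, 811 and 876 in PND2N, 635, 924, 775 and 699 in PND2R, and 524, 649.9, 856 and 581 in PND0. Here too PND2R 2 and PND0 3 were the high libraries of their groups. The genes most like the mean of SLA-8 and SLA-7 were IL15RA, IFNE, BRP44, FAM32A, PRR13, SEC61B, ACYP2 and MRPL9, with r from 0.94 to 0.95. KRT8 had an r of 0.76 with that mean, above 90.1% of all tested genes, and 0.05 with the class II mean. With the mean of SLA-8 and SLA-7, AIF1 had 0.88, C1QB 0.81 and CSF1R -0.32. With the class II mean these 3 had 0.68, 0.59 and -0.31. SLA-8 and SLA-7 had an r of 0.23 with each other.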

How the data were processed

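RNA of 12 uteri was sequenced. The authors deposited 1 table of signal, a normalized linear value per gene and library with 1 as its lowest value. Per the labels' protocols, RNA was isolated with a column kit and libraries were made with a kit for messenger RNA. Per the submitters' processing notes, bcl2fastq was used and the build was Sscrofa 10.2, while for aligner, counting and normalization method the sources used here give nothing. Low values were whole multiples of 1 step (within 0.02) in only 36.4% to 44.1% of cases, so reads were not recovered, no count test was run, and read depth is unknown. No 2 libraries held identical values, and their lowest pairwise correlation was 0.935.

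Genes over 1 in at least 4 of 12 libraries (16862 of 20390) were fitted as log2(value + 1), which understates changes of low genes, with R 4.3.3, statmod 1.5.0 and limma 3.58.1, whose empirical Bayes moderation was robust and trended. Tests were two-sided, with Benjamini-Hochberg adjustment across the genes tested. Labels name no litter or batch, so no covariate was fitted. Names came from the table and, by gene ID, from an NCBI table of Sscrofa11.1 that held 14468 of the entries and from which no positions were taken. Within each list, up to 4 genes with the smallest p over the 3 groups were eligible to be named, plus TAP1, PTPRC, CSF1R, CD3E, MS4A1 and FLT3. Other genes named are said to be chosen later or are the list members that passed, were at 1 or frame a result. The members and lists were chosen with earlier results of these data known. The correlation of 1 red cell marker is not reported here. Tables used pandas 2.3.3 and numpy 2.4.6 in Python 3.11.15, and figures used matplotlib 3.10.9. Alternatives were other added values, filters, scalings and moderation, only the groups compared, and libraries left out.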

Additional observations from a re-analysis of the deposited data

Results flagged for a closer look

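Within groups of 4 libraries, 31 MHC and MHC-like entries were examined in 70 groups for 1 library far from the other 3. Genes of the other lists were not examined in this way. By Dixon's criterion at the 95% level, which chance meets in about 1 of 20 groups, 4 cases were found. SLA-DRA was 2158 in PND0 3, against 552 to 729 in the other 3 PND0 libraries. LOC100513601, the class I-like entry, was 5175 in PND2R 2, against 823 to 862 in the other PND2R libraries, and 4684 in PND0 1, against 654 to 1267 in the other PND0 libraries. SLA-5, a class I entry of the same block, was 65.1 in PND2R 2, against 45.4 to 47.1 in the other PND2R libraries.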

How the results depend on the processing

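The counts of SLA genes called stayed at 0 in PND2N against PND2R under every alternative run. With no filter on low values, no SLA gene was called in PND2R against PND0 (0 of 7), and 859 genes were called in PND2N against PND0, where 560 were called with the filter. When a fit held just the groups compared, 7 genes were called in PND2N against PND0 and 1 in PND2N against PND2R. Without the 3 libraries of high DES the SLA genes called were 0 in PND2R against PND0 and 0 jointly on day 2, and the genes called overall were 275 in PND2N against PND0, 254 in PND2R against PND0, 1418 jointly and 5 in PND2N against PND2R. In that fit the PND2R changes against PND0 turned to -0.49 for SLA-DRA, -0.0108 for SLA-DQB1, -0.0860 for SLA-DMB and -0.23 for SLA-DOA. The cause was not tested.

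With 1 library left out at a time, the SLA genes called were 0 to 2 in PND2N against PND0, 0 to 1 in PND2R against PND0, 0 to 3 jointly and 0 in PND2N against PND2R, and the genes called overall were 26 to 645, 549 to 4101, 1032 to 3834 and 1 to 3 in the same order. Signs turned only for changes near 0. SLA-7 ran from -0.0664 to 0.10 in PND2N, -0.0541 to 0.11 in PND2R and -0.0603 to 0.10 jointly against PND0, and from -0.0301 to 0.0046 in PND2N against PND2R. In PND2R against PND0, SLA-DRA ran from -0.20 to 0.55 and SLA-DMB from -0.0039 to 0.28, and SLA-8 ran from -0.15 to 0.17 in PND2N against PND2R. TMM and quantile scaling, added values of 0.1 and 5 and plain moderation left the SLA genes called at 0, 1, 2 and 0. No paired analysis was possible because the library numbers in the labels are not shared between groups and pair no animals. Without read counts, what depth limits at low values, such as SLA-DOA, could not be given as an interval.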
